A study of Oryza sativa with 5 samples.

Results

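The genes of the rice circadian clock were followed in root RNA-seq libraries. They comprised 9 loci out of 34330 in the deposited tables, and they were listed as 17 of 40925 transcripts. They were taken by their locus identifiers, but with earlier results of these data known. The loci were LHY (Os08t0157600), the pseudo-response regulators PRR73 (Os03t0284100), PRR37 (Os07t0695100), PRR95 (Os09t0532400), PRR59 (Os11t0157600) and PRR1 (Os02t0618200, also called TOC1), GI (Os01t0182600), and a pair of ELF3 loci (Os06t0142600 and Os01t0566100). Roots of rice (Oryza sativa) seedlings aged 2 weeks were used. Seeds had germinated on MS medium at 28 °C for 4 days, and the seedlings then grew in soil in a greenhouse, 3 plants in each pot, with no stress given. There were 5 libraries, 1 per group. The groups were nontransgenic (NT) plants of the cultivar Nipponbare, RCc3::OsNAC6 plants and GOS2::OsNAC6 plants in Nipponbare, NT plants of the cultivar Hwayoung, and nac6 plants in Hwayoung. OsNAC6 encodes a NAC transcription factor. Its transgene was under RCc3, a promoter specific to roots, or under the constitutive GOS2 promoter, and nac6 is labelled as its knockout. How many plants were pooled in a library, and the hour at which roots were taken, were not given in the sources used here.

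A plant circadian clock is a loop of transcription factors that peak one after another through the day and repress each other. In rice, LHY is a MYB factor of dawn. PRR73 and PRR37 follow in the morning, PRR95 and PRR59 later in the day, and PRR1/TOC1 towards evening. In Arabidopsis, LHY and its relative CCA1 repress evening genes, the PRR proteins repress LHY in return, ELF3 is part of an evening complex of repressors, and GI, an evening gene, stabilises the F-box protein ZTL. In rice the same genes feed into flowering time: PRR37 is the heading date gene Hd2, the ELF3 locus Os06t0142600 is Hd17, and GI acts on Hd1. Because each of these transcripts changes with the hour, a library holds 1 time point of a cycle. Differences between libraries in time of day and in genotype cannot be told apart here.

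Levels below are RPM, the whole reads recovered from the deposited values scaled to a library total of 1000000. Differences are log2 ratios of the deposited normalized counts, each plus 1, within 1 table, and a transcript was called at 2-fold when the pair had a mean of at least 10. Each error is a standard error from the reads. It covers counting error only, because 1 library per group gives no replicate error, and no test between genotypes was possible. The libraries held between 22909719 and 26838552 reads. All 9 loci passed the filter on low values in each of the 3 comparisons.

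The labels were checked first. In the Nipponbare libraries OsNAC6 (Os01t0884300-01) had 232 RPM in NT, 233 under the label RCc3::OsNAC6 and 279 under GOS2::OsNAC6. In Hwayoung it had 322 RPM in NT and 359 under the label nac6. Its log2 ratios against NT were -0.02 ± 0.04, 0.37 ± 0.03 and 0.31 ± 0.03 for the 3 labels in that order, so it was not reduced in the library labelled as a knockout and not raised in the one labelled RCc3::OsNAC6. Every direction given below is therefore that of a library as labelled. The root genes RCc3 and the silicon transporter genes Lsi1 and Lsi2 were present in all 5 libraries, from 182 RPM upward.

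In the library labelled RCc3::OsNAC6 the clock genes lay on both sides of their control. The evening gene GI was 2.16-fold higher than in NT (Nipponbare) and the day gene PRR95 was 2.18-fold lower, and these were the loci past 2-fold. Whether the clock genes were spread more widely than other transcripts was not tested. Of 9 loci, 5 were above 0 and 4 below, with a median log2 ratio of 0.05 and a range from -1.13 to 1.11. Among all 32487 transcripts tested, 4.47% were at least 2-fold higher and 6.03% at least 2-fold lower, with a median of 0.005, so that 10.5% passed 2-fold. In the library labelled GOS2::OsNAC6 no locus passed 2-fold, where 1.83% of 31987 transcripts were higher and 2.0% lower (3.84% in all). All 9 loci were nonetheless below 0, with a median of -0.41 against -0.009 over all transcripts. In the library labelled nac6 no locus passed 2-fold either, where 6.3% of 30767 transcripts were higher and 3.65% lower (9.95% in all). There 8 loci were below 0 and 1 above, with a median of -0.40 against -0.007. The comparisons of RCc3::OsNAC6 and GOS2::OsNAC6 share the NT (Nipponbare) library.

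**Figure D1:**
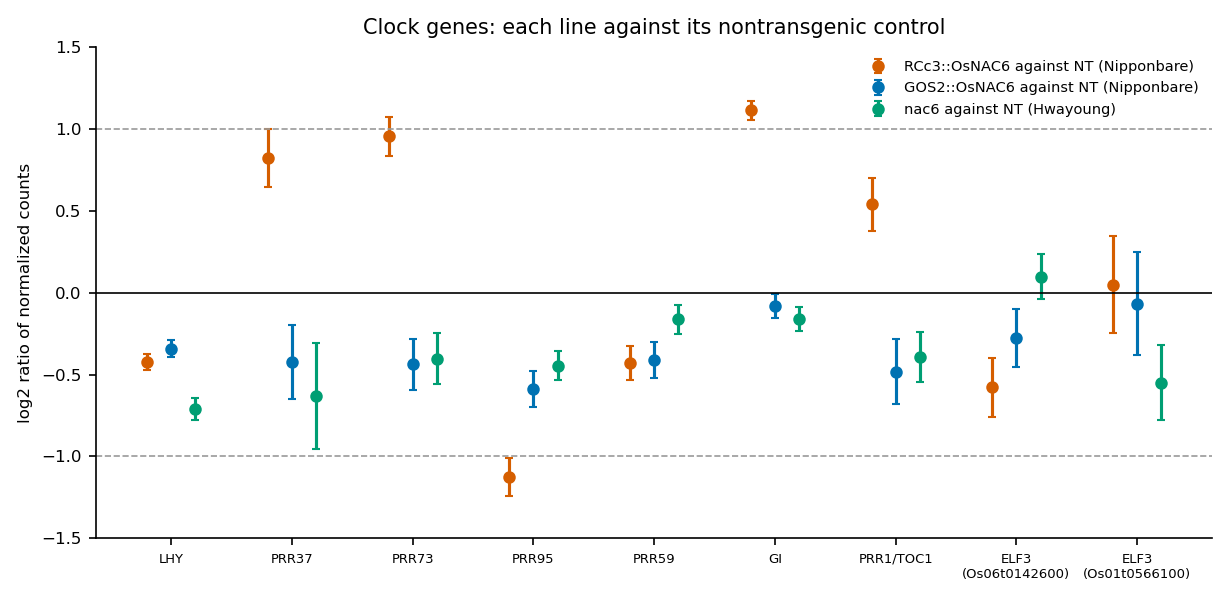
Log2 ratio of normalized counts (vertical axis) for the most abundant transcript of each of the 9 clock loci (horizontal axis, in order of daily role), in each comparison. Bars through the points are intervals for counting error only and dashed lines mark 2-fold. Values for RCc3::OsNAC6 spread from -1.13 to 1.11, while all 9 for GOS2::OsNAC6 lie between -0.59 and -0.07.

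LHY, the dawn MYB factor on chromosome 8, was lowest in the library labelled nac6. Os08t0157600-01 had 471 RPM in NT (Nipponbare), 359 in RCc3::OsNAC6, 347 in GOS2::OsNAC6, 375 in NT (Hwayoung) and 206 in nac6. Both NT libraries lay above the 3 others, and RCc3::OsNAC6 and GOS2::OsNAC6 did not differ beyond counting error. The log2 ratios were -0.42 ± 0.03 in RCc3::OsNAC6, -0.34 ± 0.03 in GOS2::OsNAC6 and -0.71 ± 0.03 in nac6. LHY was thus lower than its control in every comparison, by less than 2-fold.

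PRR73 and PRR37, the morning members of the PRR family, were highest in the library labelled RCc3::OsNAC6. PRR73 (Os03t0284100-01, chromosome 3) had 56.5 RPM in NT (Nipponbare), 112 in RCc3::OsNAC6, 38.9 in GOS2::OsNAC6, 60.5 in NT (Hwayoung) and 41.1 in nac6. PRR37 (Os07t0695100-01, chromosome 7) had 27.0, 48.9, 18.7, 16.1 and 9.30 RPM in the same order. Both were highest in RCc3::OsNAC6 and lower in GOS2::OsNAC6 and nac6 than in their NT libraries, and PRR37 was lower in NT (Hwayoung) than in NT (Nipponbare). For PRR73 the log2 ratios were 0.95 ± 0.06 in RCc3::OsNAC6, -0.44 ± 0.08 in GOS2::OsNAC6 and -0.40 ± 0.08 in nac6. For PRR37 they were 0.82 ± 0.09, -0.42 ± 0.12 and -0.63 ± 0.16. Within each comparison their ratio did not move beyond counting error. The log2 ratio of PRR37 to PRR73 differed from its control by -0.13 ± 0.11, 0.01 ± 0.14 and -0.23 ± 0.18, and each interval held 0. Between cultivars it did differ, the ratio of reads being 0.478 in NT (Nipponbare), 0.266 in NT (Hwayoung) and 0.226 in nac6. In order of level, PRR73 did not differ beyond counting error between both NT libraries, nor between nac6 and GOS2::OsNAC6, and PRR37 did not between GOS2::OsNAC6 and NT (Hwayoung).

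PRR95 and PRR59, the later day members, went the other way in RCc3::OsNAC6. PRR95 (Os09t0532400-02, chromosome 9) had 121 RPM in NT (Nipponbare), 56.8 in RCc3::OsNAC6, 75.2 in GOS2::OsNAC6, 193 in NT (Hwayoung) and 127 in nac6. PRR59 (Os11t0157600-01, chromosome 11) had 114, 86.3, 79.8, 176 and 141 RPM in that order. Both were highest in NT (Hwayoung), and both overexpressor-labelled libraries were the lowest. PRR95 had log2 ratios of -1.13 ± 0.06 in RCc3::OsNAC6, -0.59 ± 0.06 in GOS2::OsNAC6 and -0.44 ± 0.05 in nac6. For PRR59 the values were -0.43 ± 0.05, -0.41 ± 0.06 and -0.16 ± 0.04. PRR95 was further below its control than PRR59 in each comparison, the log2 difference being -0.70 ± 0.08, -0.18 ± 0.08 and -0.28 ± 0.06. PRR95 in nac6 and in NT (Nipponbare) did not differ beyond counting error.

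GI, the evening gene, was high in 1 library. Os01t0182600-01 on chromosome 1 had 222 RPM in NT (Nipponbare), 491 in RCc3::OsNAC6, 195 in GOS2::OsNAC6, 258 in NT (Hwayoung) and 207 in nac6. The library labelled RCc3::OsNAC6 stood above the 4 others, which lay between 195 and 258 RPM. The log2 ratios were 1.11 ± 0.03 in RCc3::OsNAC6, -0.08 ± 0.04 in GOS2::OsNAC6 and -0.16 ± 0.04 in nac6.

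PRR1/TOC1, the evening PRR, was also higher in RCc3::OsNAC6, by less than 2-fold. Os02t0618200-01 on chromosome 2 had 35.1 RPM in NT (Nipponbare), 52.3 in RCc3::OsNAC6, 23.5 in GOS2::OsNAC6, 63.0 in NT (Hwayoung) and 43.2 in nac6. No pair of neighbours in this order lay within counting error, and none did for GI. In log2 ratio PRR1/TOC1 stood at 0.54 ± 0.08 in RCc3::OsNAC6 and was below its control in the others, at -0.48 ± 0.10 in GOS2::OsNAC6 and -0.39 ± 0.08 in nac6.

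The ELF3 loci did not follow each other. Os06t0142600-01 on chromosome 6, described in the tables as similar to ELF3, had 41.7 RPM in NT (Nipponbare), 28.4 in RCc3::OsNAC6, 32.1 in GOS2::OsNAC6, 66.3 in NT (Hwayoung) and 63.8 in nac6. Its log2 ratios were -0.58 ± 0.09, -0.28 ± 0.09 and 0.10 ± 0.07, and the last was -0.06 when scaled to library totals. Os01t0566100-01 on chromosome 1, which the tables call a conserved hypothetical protein, had 12.0, 12.7, 10.7, 30.5 and 18.6 RPM in the same order. Its log2 ratios were 0.05 ± 0.15, -0.07 ± 0.16 and -0.55 ± 0.12. The first locus was thus lower in RCc3::OsNAC6 and GOS2::OsNAC6 and the other lower in nac6, and neighbouring Nipponbare libraries did not differ beyond counting error at Os01t0566100.

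**Figure D2:**
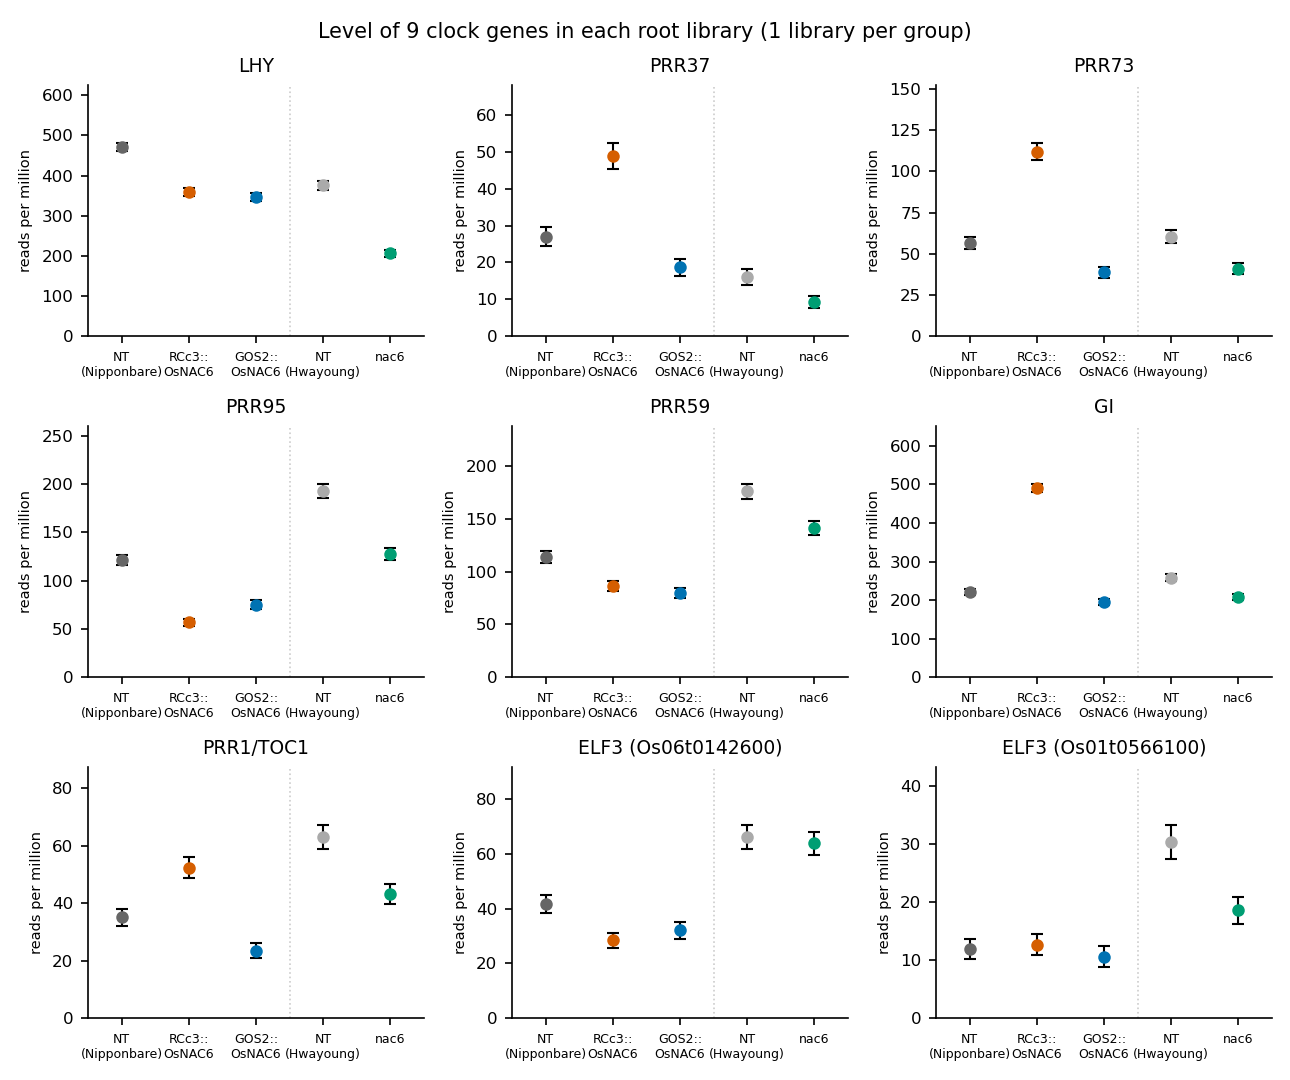
RPM (vertical axes) of the most abundant transcript of each clock locus in the 5 libraries, with intervals for counting error only. GI, PRR73 and PRR37 are highest in RCc3::OsNAC6, at 491, 112 and 48.9 RPM, and PRR95 is lowest there, at 56.8.

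Transcripts of one locus gave the same directions, with reads that overlap between isoforms shared in a way the sources used here do not state. In RCc3::OsNAC6, 5 of the 17 transcripts were at least 2-fold higher: both of GI, at 1.11 and 1.02 ± 0.03, PRR37-02 at 1.20 ± 0.31, and PRR73-02 and PRR73-03 at 1.24 ± 0.14 and 1.10 ± 0.10. Both PRR95 transcripts were at least 2-fold lower, at -1.12 and -1.13. Among all 32487 transcripts tested there, 4.47% were at least 2-fold higher and 6.03% at least 2-fold lower. Isoforms of one locus are not separate results, and by the most read transcript only GI and PRR95 passed 2-fold. GI reads were split nearly evenly between its transcripts, the first taking between 49.3% and 51.4% of them in each library. PRR37-02, which took 7.17% to 10.6% of the PRR37 reads, was the only transcript past 2-fold in nac6, at -1.14 ± 0.54 from 17 reads against 45. The LHY transcripts lay between -0.73 and -0.42 in RCc3::OsNAC6, between -0.46 and -0.34 in GOS2::OsNAC6 and between -0.78 and -0.45 in nac6.

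**Figure D3:**
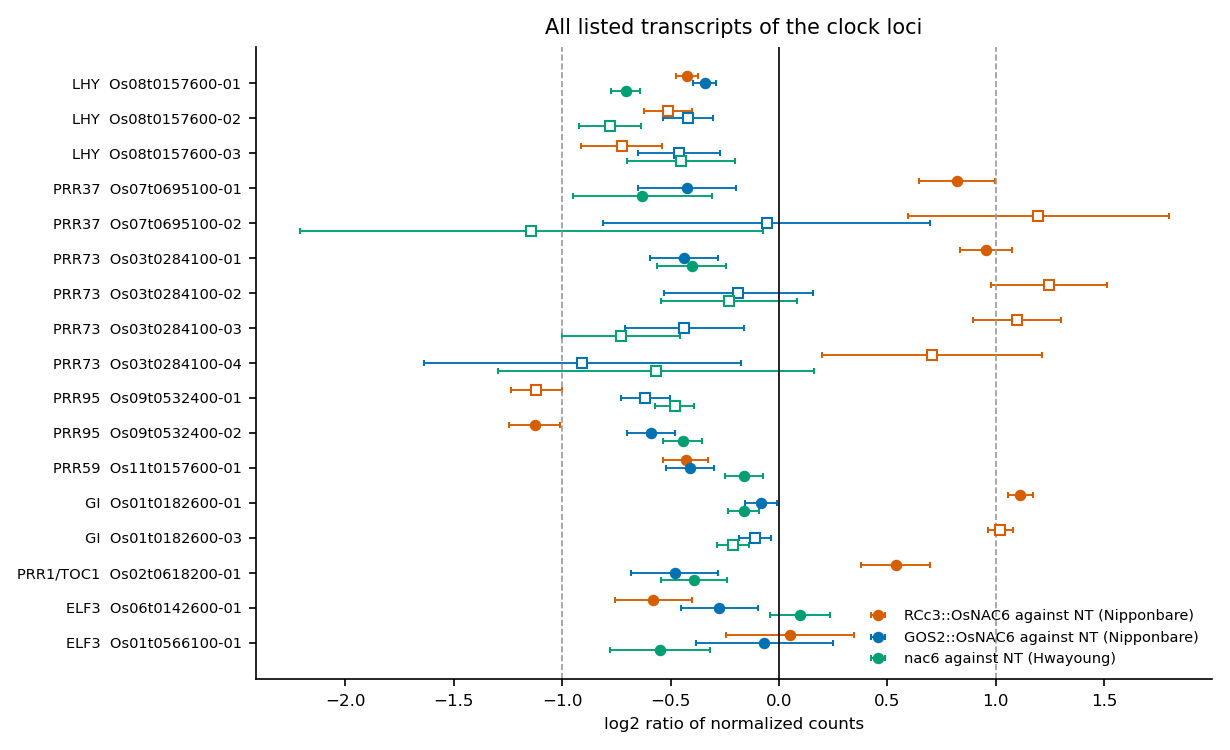
Log2 ratio of normalized counts (horizontal axis) of the 17 transcripts of the 9 clock loci (vertical axis), 1 point per comparison with its interval for counting error. Filled points are the transcripts with the most reads of a locus, and dashed lines mark 2-fold. The PRR37, PRR73 and GI transcripts lie to the right in RCc3::OsNAC6, and the transcripts of one locus share their direction there.

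Ratios of one clock gene to another within a library do not depend on how libraries are scaled, and they place the libraries by their balance of early and late genes. The ratio of LHY to PRR1/TOC1 reads was 13.4 in NT (Nipponbare), 6.86 in RCc3::OsNAC6, 14.7 in GOS2::OsNAC6, 5.95 in NT (Hwayoung) and 4.77 in nac6. Dawn reads were thus more in excess in NT (Nipponbare) and GOS2::OsNAC6 than in the 3 other libraries. Against its control the log2 ratio moved by -0.97 ± 0.09 in RCc3::OsNAC6, by 0.14 ± 0.11 in GOS2::OsNAC6 and by -0.32 ± 0.09 in nac6. With GI as the evening gene the ratio was 2.12, 0.731, 1.77, 1.45 and 0.995, and the log2 changes were -1.54 ± 0.04, -0.26 ± 0.05 and -0.55 ± 0.05. LHY was thus lower relative to the evening genes in RCc3::OsNAC6 and nac6 by either measure, and in GOS2::OsNAC6 by GI only. In nac6 both evening genes were themselves below control, PRR1/TOC1 at -0.39 and GI at -0.16, with LHY lower still at -0.71. In RCc3::OsNAC6 the evening genes were higher, and the morning genes PRR73 (0.95) and PRR37 (0.82) were higher too.

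Ratios of other clock genes to the day gene PRR95 moved furthest from their control in RCc3::OsNAC6. The ratio of PRR73 to PRR95 was 0.466 in NT (Nipponbare), 1.97 in RCc3::OsNAC6, 0.518 in GOS2::OsNAC6, 0.313 in NT (Hwayoung) and 0.323 in nac6. It was thus above 1 in 1 library, and the log2 changes were 2.08 ± 0.09, 0.15 ± 0.10 and 0.04 ± 0.09, with 0 inside the interval in GOS2::OsNAC6 and nac6. The ratio of GI to PRR95 was 1.83, 8.63, 2.60, 1.34 and 1.63, with log2 changes of 2.24 ± 0.07, 0.51 ± 0.07 and 0.28 ± 0.06. PRR73 is a morning gene and GI an evening gene. Both ratios share PRR95, whose own log2 ratio in RCc3::OsNAC6 was -1.13, so they are not separate results. The 4 ratios of LHY or PRR95 given so far each moved beyond counting error in RCc3::OsNAC6, while PRR37 to PRR73 did not. This was not particular to that library. LHY to GI and GI to PRR95 also moved beyond counting error in GOS2::OsNAC6 and nac6, and LHY to PRR1/TOC1 did in nac6. Whether it was harvested at another hour was not tested, since no hour is given.

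**Figure D4:**
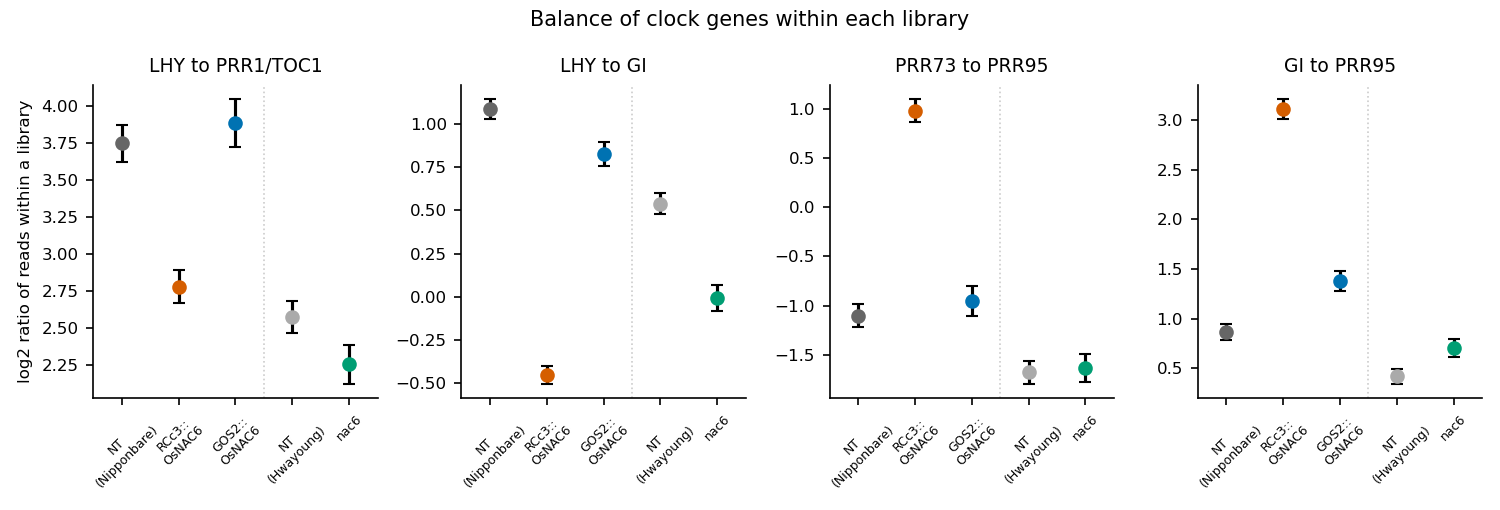
Log2 ratio of the reads of one clock gene to another (vertical axes) within each of the 5 libraries, with intervals for counting error only. RCc3::OsNAC6 has the highest ratio of PRR73 to PRR95 (1.97) and of GI to PRR95 (8.63), and the lowest of LHY to GI (0.731).

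Scaled to library totals, both NT libraries also differed from each other in their clock genes, a pairing chosen after the values were seen, in which cultivar, table and harvest cannot be told apart. In NT (Hwayoung) 7 of 9 loci were higher than in NT (Nipponbare) and 2 were lower, with a median log2 ratio of 0.63 against -0.213 over all transcripts. The ELF3 locus Os01t0566100 was past 2-fold, at 1.34 ± 0.13, where 24.3% of all transcripts were. PRR1/TOC1 was higher by 0.84 and PRR95 by 0.67, while LHY (-0.33) and PRR37 (-0.75) were lower. The libraries labelled RCc3::OsNAC6 and GOS2::OsNAC6 were also set against each other, since that contrast needs no control. Promoter, line, table and harvest cannot be told apart in it either. In RCc3::OsNAC6 7 loci were higher and 2 lower, with a median of 0.25 against 0.128 over all transcripts. PRR73, PRR37, GI and PRR1/TOC1 were past 2-fold there, at 1.52 ± 0.07, 1.38 ± 0.11, 1.33 ± 0.03 and 1.15 ± 0.10, where 11.5% of all transcripts were. LHY did not differ between them beyond counting error, at 0.05 ± 0.03. Nor did PRR59 (0.11 ± 0.06) and the ELF3 loci Os01t0566100 (0.25 ± 0.16) and Os06t0142600 (-0.17 ± 0.10).

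Genes around the clock were taken from a list of 54 other loci: 18 fixed by identifier and 36 whose function text holds words such as phytochrome, cryptochrome, CONSTANS or circadian. The list was drawn up with earlier results of these data known, so its counts are a description only. In RCc3::OsNAC6, 1 of 43 tested loci was at least 2-fold higher and 13 were at least 2-fold lower, against 4.47% and 6.03% of all transcripts. In that comparison 35 were below 0, with a median of -0.39. In GOS2::OsNAC6 none of 45 passed 2-fold, where 3.84% of all transcripts did, with a median of 0.02 and a range from -0.79 to 0.98. In nac6, 3 of 43 were at least 2-fold higher and 1 lower, against 6.3% and 3.65% of all transcripts, with a median of -0.15. The counts in GOS2::OsNAC6 and nac6 were thus near those shares.

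All 3 listed relatives of the dawn MYB factors were among the loci lower in RCc3::OsNAC6. Os04t0583900-01, described as LHY-like, had 37.9 RPM in NT (Nipponbare), 4.90 in RCc3::OsNAC6, 34.1 in GOS2::OsNAC6, 48.3 in NT (Hwayoung) and 35.4 in nac6, and a log2 ratio of -2.96 ± 0.18 in RCc3::OsNAC6. Os02t0685200-01, a homeodomain-like protein, had 450 reads in NT (Nipponbare) and 59 in RCc3::OsNAC6, a log2 ratio of -2.87 ± 0.27, and Os06t0728700-01 had 4010 and 1319, at -1.58 ± 0.06. Among the Nipponbare libraries each was lowest in RCc3::OsNAC6, and the GOS2::OsNAC6 library had 435 and 2698 reads of the last pair. LHY itself was lower in that library by far less, at -0.42.

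Some photoperiod and light-signalling genes were also among those lower, and others of the list were not. Chosen after their values were seen, phytochromes A, B and C (Os03t0719800-01, Os03t0309200-01 and Os03t0752100-01), which are red light receptors, were at -0.10 ± 0.06, -0.01 ± 0.07 and -0.07 ± 0.16 in RCc3::OsNAC6, and the CONSTANS-like Os05t0595300-02 was at 0.36 ± 0.07. The CONSTANS-like genes past 2-fold lower there, of a family whose founding member promotes flowering in Arabidopsis, were Os06t0654900-01 at -2.57 ± 0.17 (933 reads in NT (Nipponbare) and 154 in RCc3::OsNAC6), Os04t0497700-01 at -1.84 ± 0.34 and Os03t0351100-01 at -1.33 ± 0.10. Hd1 (Os06t0275000-01), the rice CONSTANS on which GI acts, was at -1.65 ± 0.54, from 2.05 RPM in NT (Nipponbare). Lower too were the Dof factor Os03t0169600-01 (-1.65 ± 0.11), COP1 (Os02t0771100-03, a ubiquitin ligase of light signalling, -1.02 ± 0.15), a DASH cryptochrome (Os06t0661800-01, -1.13 ± 0.27), Os01t0802600-00 (-2.16 ± 0.74), the kinase Os03t0773300-01 (-1.37 ± 0.10) and the GH3 family member Os05t0586200-01 (-1.14 ± 0.06). The locus higher in RCc3::OsNAC6 was Os03t0417700-01, a P450 enzyme caught by its text "Phytochrome P450", at 1.68 ± 0.24. In nac6 it was at 1.37 ± 0.48, beside a CCT domain protein (Os01t0835700-01, 1.29 ± 0.14) and a CONSTANS-like gene (Os12t0209200-01, 1.08 ± 0.39). The lower locus in nac6 was Os01t0741900-01 (-1.05 ± 0.12), described as similar to the auxin regulator IAA26. Os01t0190300-01, with the same description, went the other way there, at 0.67 ± 0.09. Phytochromes A, B and C were at -0.91 ± 0.09, -0.59 ± 0.09 and -0.19 ± 0.17 in nac6, so A and B were lower there by less than 2-fold.

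**Figure D5:**
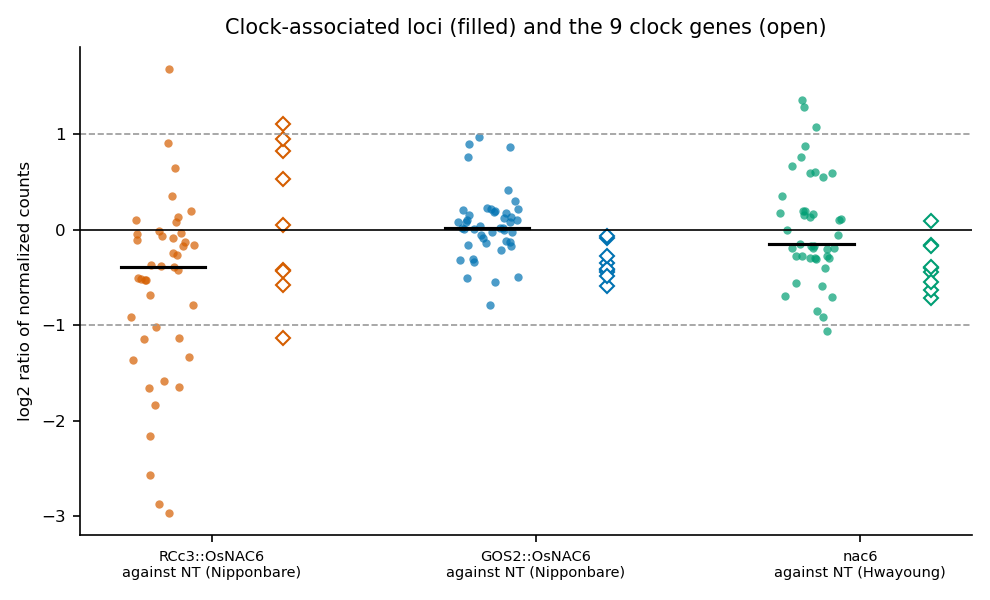
Log2 ratio of normalized counts on the vertical axis for the loci of the list around the clock that passed the filter (filled points, with their median as a bar) and the 9 clock genes (open symbols), by comparison. Dashed lines mark 2-fold. Values of the list for RCc3::OsNAC6 lie mostly below 0, with a median of -0.39, against 0.02 for GOS2::OsNAC6 and -0.15 for nac6.

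Shoot transcripts moved in the same library. Over 61 transcripts of photosystem, chlorophyll a/b and Rubisco small chain genes, the summed level was 67.6 RPM in NT (Nipponbare), 45.9 in RCc3::OsNAC6, 61.5 in GOS2::OsNAC6, 71.2 in NT (Hwayoung) and 76.1 in nac6. Between 4 and 6 of them were at 0 in each library. Of 22 that passed the filter in RCc3::OsNAC6, 16 were below 0, with a median of -0.62. In GOS2::OsNAC6 the median was -0.06, and in nac6 19 of 26 were above 0 with a median of 0.30. Their part in the clock results was not tested. In bulk roots, fewer cells of a type and less RNA per cell cannot be told apart.

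Transcripts of other loci with the pattern nearest to a clock gene were sought by Euclidean distance over the 3 log2 ratios. The search ran among 15520 transcripts with a mean of at least 50 in each pair. Neighbours named and counted leave out the clock loci and transcripts without a description or described as hypothetical, unknown or non-protein coding. The other GI transcript (Os01t0182600-03), at 1.02, -0.11 and -0.21, is therefore not among them. For GI the nearest were Os02t0102900-01, a chaperonin 60 beta subunit, at 0.015, a NAM-like protein (Os03t0221300-01) at 0.141, a Myb/SANT protein (Os09t0248900-01) at 0.144, a shikimate kinase (Os04t0640600-01) at 0.156 and a calcium-dependent protein kinase (Os07t0161600-01) at 0.174. Of the transcripts kept, 5 lay within 0.2 of GI. For LHY 42 did, the nearest being a BAH domain protein (Os01t0610300-01) at 0.033, Os08t0180300-03, Os07t0474700-01 and Os07t0273600-01 at 0.075, 0.077 and 0.081, and the R2R3 Myb gene Os09t0538400-01 at 0.096. For PRR1/TOC1 49 did, led by Os02t0699000-01 at 0.026, Os12t0134200-01 at 0.041, Os08t0500800-01 at 0.063, Os11t0308100-01 at 0.073 and Os12t0613500-01 at 0.087. With 3 values behind each distance, of which 2 share a control, such likeness is a description only.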

How the data were processed

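RNA was isolated from roots, and strand-specific libraries from a modified TruSeq method were sequenced on an Illumina HiSeq instrument. Per the processing notes the build was IRGSP 1.0. The aligner, the counting rule and the annotation release were not given in the sources used here. The authors deposited 3 tables, 1 per comparison, each holding a signal per transcript and library: the mean count after division by DESeq size factors within that table. Their fold changes and p-values, also in the tables, were not used. Each deposited value was split into the whole reads of 2 count columns of 1 library, all 17 clock transcripts in a single way. The columns differed with a mean chi-square of 1.76 to 1.78, by which counting variances were multiplied. They were not treated as replicates. Splitting was tested on simulated data. Ratios used a pseudocount of 1, which understates changes of low transcripts, and intervals are at the 95% level. The most read transcript stood for each locus. Levels across tables used library totals, since tables had been normalized separately. Columns were assigned to libraries by the sample numbers in the labels. The named genes were all clock transcripts, the called loci of the list, and the 5 nearest transcripts of LHY, PRR1/TOC1 and GI. Beside them stood OsNAC6, root markers, 4 loci named as chosen after their values were seen, and Os01t0190300-01, named for its shared description. Of the 22 listed identifiers, those not found were not analysed here. The clock genes and the lists were chosen with earlier results of these data known. Alternatives were library totals, each count column alone, other pseudocounts, filters and thresholds, and sums over transcripts. Python 3.11.15, numpy 2.4.6 and pandas 2.3.3 were used.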

Additional observations from a re-analysis of the deposited data

Results flagged for a closer look

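For 4 clock genes the libraries labelled RCc3::OsNAC6 and GOS2::OsNAC6 lay on opposite sides of the NT (Nipponbare) library that both comparisons share, each with an interval that left out 0. The log2 ratio for RCc3::OsNAC6 exceeded that for GOS2::OsNAC6 by 1.39 for PRR73, 1.25 for PRR37, 1.20 for GI and 1.02 for PRR1/TOC1. With 1 library in each group the difference was not tested.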

How the results depend on the processing

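No clock locus changed from past 2-fold in one direction to the other. Of 27 ratios of the 9 loci, library totals moved 7 beyond their intervals, by at most 0.156, and turned 1, the ELF3 locus Os06t0142600 in nac6, to -0.06. Column 1 alone moved 2 and column 2 alone 1, and each turned the sign of 1 value, the ELF3 locus Os01t0566100 in GOS2::OsNAC6 (0.02) and in RCc3::OsNAC6 (-0.13). Other pseudocounts and sums moved none. Over the alternatives the change in the log2 ratio of LHY to PRR1/TOC1 ran from -1.13 to -0.81 in RCc3::OsNAC6, from -0.01 to 0.28 in GOS2::OsNAC6 and from -0.43 to -0.20 in nac6. At 1.5-fold the clock loci called were 3 higher and 1 lower in RCc3::OsNAC6, 1 lower in GOS2::OsNAC6 and 2 lower in nac6. Over all transcripts tested, 8776 of 32487, 4956 of 31987 and 8167 of 30767 passed 1.5-fold in that order. No excess is read from the counts at 1.5-fold, for the clock loci or for the list. At 4-fold they were 0 higher and 0 lower in RCc3::OsNAC6. With reads summed over transcripts, 2 were higher in RCc3::OsNAC6, PRR73 joining GI. For the list around the clock, library totals gave 3 lower in nac6. Column 1 alone gave 2 higher and 1 lower in GOS2::OsNAC6 and 3 lower in nac6, and column 2 alone 1 higher in GOS2::OsNAC6. Without a filter, 4, 1 and 5 were higher and 16, 0 and 1 lower in RCc3::OsNAC6, GOS2::OsNAC6 and nac6. At a minimum of 50, 1 was higher and 10 lower in RCc3::OsNAC6, and 1 higher and 1 lower in nac6. At 1.5-fold the list had 3 higher and 16 lower in RCc3::OsNAC6, 4 higher and 1 lower in GOS2::OsNAC6, and 9 higher and 6 lower in nac6. At 4-fold it had 0 higher and 4 lower in RCc3::OsNAC6 and 0 of either in nac6. Over all transcripts the counts called, 3411, 1227 and 3061, became 5909, 3434 and 5902 without a filter, 1901, 494 and 1582 at a minimum of 50, 8776, 4956 and 8167 at 1.5-fold, and 670, 132 and 616 at 4-fold. The numbers tested without a filter and at a minimum of 50 are not given, so the counts called there are not read as an excess either. In GOS2::OsNAC6 columns 1 and 2 alone gave 1906 and 1923. No paired analysis was possible because each group had 1 library, and none could be left out for the same reason. Among the genes named, counting errors were widest for Os01t0802600-00, PRR37-02 and Hd1.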
